A study of Homo sapiens with 2 samples.

Results

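Desmosome and tight junction genes, with the cadherin CDH1, were followed in PC-3 cells after SHISA2 knockdown. The 10 genes were CDH1, the tight junction genes CLDN1, OCLN and TJP1, and the desmosome genes DSP, DSG2, DSC2, JUP, PKP2 and PKP3. All probe sets that the array annotation assigns to exactly 1 of these 10 genes were taken, which gave 22 of the 54675 probe sets on the array, for 10 of the 19775 genes it names this way. PC-3 cells are a human line of prostate carcinoma, derived from a metastasis in bone, whose growth does not depend on androgen. The series holds 2 arrays, 1 of PC-3 cells with the control vector (siCONTROL) and 1 of PC-3 cells with the vector against SHISA2 (siSHISA2), and its design text calls both short hairpin RNA (shRNA) expression vectors, although the sample names begin with si. The question is how transcript levels differ once SHISA2 is reduced. With 1 array in each group nothing could be tested against variation between cultures, so every difference is a description of these 2 arrays, and the number of arrays limits its precision.

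Epithelial cells hold together through several kinds of junction. In adherens junctions E-cadherin, encoded by CDH1, binds the same protein on the next cell and is tied to actin through catenins. In tight junctions claudins and occludin form strands that seal the space between cells and are anchored by ZO proteins. In desmosomes the desmogleins and desmocollins, which are cadherins of their own class, bind armadillo proteins (plakoglobin and plakophilins), and desmoplakin links these to keratin filaments. Loss of E-cadherin is a common feature of carcinoma lines that have taken on mesenchymal traits.

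SHISA2 itself read 3536.1 in the siCONTROL array and 1506.2 in the siSHISA2 array, which is 42.6% of the control signal (log2 ratio -1.23). The values are MAS5 signals on a linear scale. A floor was set at 47.9, the median over the non-control probe sets of the 2 arrays together. Lower signals were replaced by it, and probe sets with at least 1 signal above it are called measured. Of the 22 probe sets 19 were measured, and they covered 9 of the 10 genes. As a technical yardstick, the log2 ratios of the 2 highest-reading measured probe sets of a gene differed with an SD that, divided by the square root of 2, was 0.286 over 6428 genes. It was 0.158 over the 2944 genes whose 2 probe sets both had a mean signal above 387.3, the 75th percentile of all signals. It does not cover the spread from culture to culture, extraction to extraction or array to array. The ratio of 3' to 5' signal, a sign of RNA integrity, was 5 in the siCONTROL and 4.79 in the siSHISA2 array for ACTB, and 1.55 and 1.36 for GAPDH, and its part in the differences below was not tested.

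Most junction probe sets read slightly lower in the siSHISA2 array, and none was 2-fold apart. The log2 ratio of siSHISA2 over siCONTROL was below 0 for 14 of the 19 measured probe sets, above 0 for 4 and 0 for 1. Among all 24507 measured probe sets with 1 gene, 47.9% were below 0 and 52.1% above. At least 2-fold lower were 0.673% of these and at least 2-fold higher 1.08%. The median ratio was -0.14 for the junction probe sets and 0.01 for all. By gene, taking the measured probe set of highest mean signal for each, 7 of 9 were below 0, against 47.8% of 12931 measured genes. The 2 probe sets that were at least 1.5-fold lower belonged to DSC2 and DSG2, the desmosomal cadherins, and none was at least 1.5-fold higher. In the whole set 4.42% were at least 1.5-fold lower and 6.05% at least 1.5-fold higher. The 2 lower junction probe sets are of the _s_at kind, whose probes, like those of the _x_at kind, can match other transcripts, and without these kinds 0 of the 10 probe sets left were 1.5-fold apart. With the floor at the 75th percentile 1 probe set was, with the floor at the 25th percentile 4 were and with no floor 3 were. In both of the last settings 1 of these was higher in the siSHISA2 array, a dim probe set of PKP3 with a siCONTROL signal of 25. No share over all probe sets is given for the other floors or for leaving out the _s_at and _x_at kinds. Those counts therefore show only how the processing moves them.

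**Figure D1:**
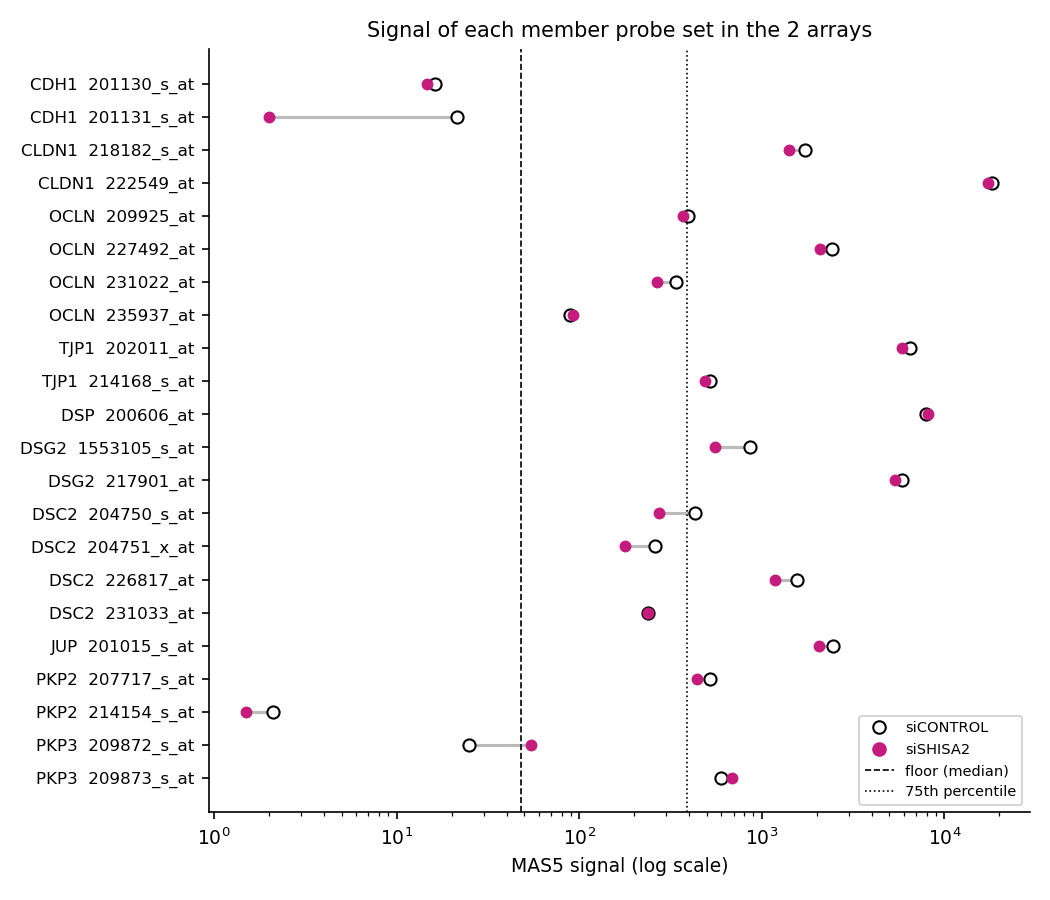
MAS5 signal of each of the 22 probe sets (x axis, log scale) in the siCONTROL array (open circles) and the siSHISA2 array (filled circles). The dashed line is the floor of 47.9 and the dotted line the 75th percentile of 387.3. Both CDH1 probe sets lie left of the floor in both arrays, and DSC2 and DSG2 have the widest gaps among probe sets with both signals above the floor.

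CDH1 was not measured. Probe set 201130_s_at read 16.3 in the siCONTROL and 14.7 in the siSHISA2 array, and 201131_s_at read 21.3 and 2. All of these signals lie under the floor in both arrays, so they have no order and no ratio is given. E-cadherin mRNA was therefore not detectable above the floor in either array, and the floor is a threshold set here and not a detection call.

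Each of the tight junction genes had at least 1 probe set above the 75th percentile in both arrays, and none of their probe sets was 1.5-fold apart. Such differences were rare among all measured probe sets with 1 gene, with 4.42% at least 1.5-fold lower and 6.05% at least 1.5-fold higher. CLDN1, which encodes the strand-forming claudin-1, read 18329.7 in the siCONTROL and 17394.5 in the siSHISA2 array on 222549_at (log2 ratio -0.08). Its other probe set, 218182_s_at, read 1731.9 and 1400.5 (-0.31). The second ratio was 1.94 times the bright yardstick of 0.158 in size and the first 0.479 times. Of all probe sets with a mean signal above the 75th percentile, 8.47% were as low as the second or lower, and 35.5% as low as the first. Both CLDN1 probe sets were lower in the siSHISA2 array. The gap of 0.23 between their ratios was matched or passed in 24.3% of the 2944 bright genes with several probe sets.

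OCLN encodes occludin, a 4-pass protein of the same strands. On 227492_at it read 2437.2 in the siCONTROL and 2080.2 in the siSHISA2 array, or 85.4% of control (-0.23). On 209925_at it read 392.9 and 370.9 (-0.08). Both were lower in the siSHISA2 array, and the ratio of 227492_at was 1.45 times the bright yardstick of 0.158 in size. A ratio as low as that of 227492_at or lower was found in 14.2% of all probe sets with a mean signal above the 75th percentile. Probe set 231022_at read 339.9 and 266.7 (-0.35), and 235937_at read 88.8 and 92.6 (0.06). Thus 3 of its 4 probe sets were below 0, and the ratio of 235937_at turned to -0.05 after quantile normalization and -0.06 after loess. OCLN, TJP1 and PKP2 have annotated pseudogenes (OCLNP1, TJP1P1 and PKP2P1), and whether these add to the signals was not tested.

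TJP1 encodes ZO-1, the scaffold that ties claudins and occludin to actin. It read 6505.6 in the siCONTROL and 5887.8 in the siSHISA2 array on 202011_at, or 90.5% of control (-0.14). On 214168_s_at it read 522.5 and 489.0 (-0.10). The probe sets of TJP1 gave nearly the same ratio, 0.05 apart, a gap that 78.9% of the bright genes with several probe sets reached or passed. Over the 3 tight junction genes 7 of 8 probe sets were below 0, with a median of -0.12. Among all measured probe sets with 1 gene 47.9% were below 0, with a median of 0.01. OCLN gave 4 of the 8, and probe sets of 1 gene are not independent readings.

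The desmosomal cadherins had the lowest ratios of single probe sets, and DSC2 also the lowest by gene. DSC2 encodes desmocollin-2, and 3 of its 4 probe sets were lower in the siSHISA2 array. Probe set 226817_at read 1565.8 in the siCONTROL and 1176.8 in the siSHISA2 array, or 75.2% of control (-0.41). Probe set 204750_s_at read 430.5 and 271.6, or 63.1% of control (-0.66). Probe set 204751_x_at read 259.5 and 177.3 (-0.55). These ratios were 1.44, 2.32 and 1.92 times the yardstick of 0.286 in size, and the first, which is bright, was 2.61 times that of 0.158. The fourth, 231033_at, read 238.1 in both arrays. Its ratio of 0.00 stands against the other 3, and the range of 0.66 over the probe sets of DSC2 was reached or passed by 34.9% of the 764 genes with 4 measured probe sets. The ratio of the highest-reading probe set, -0.41, was reached or passed on the lower side by 4.15% of the 12177 probe sets with a mean signal above the 75th percentile. Among the 12330 dimmer probe sets, 5.4% were as low as 204750_s_at or lower, and 8.34% as low as 204751_x_at. The yardstick of 0.286 pools bright and dim probe sets. In RNA from whole cultures, fewer cells with a transcript and less of it per cell cannot be told apart.

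DSG2 encodes desmoglein-2, the desmoglein of simple epithelia. Probe set 217901_at read 5861.3 in the siCONTROL and 5364.4 in the siSHISA2 array, or 91.5% of control (-0.13). Probe set 1553105_s_at read 860.1 and 554.6, or 64.5% of control (-0.63). The second was 4.01 times the bright yardstick of 0.158 in size and the first 0.81 times. Of all probe sets with a mean signal above the 75th percentile, 1.13% were as low as the second or lower, and 26.6% as low as the first. Both DSG2 probe sets were lower, but they differed by 0.51, a gap that only 3.26% of the bright genes with several probe sets reached. Which of them reads the DSG2 transcripts better was not tested. As the mean of its probe sets DSG2 had a ratio of -0.38, against -0.13 from the highest-reading one.

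Both genes lie in the cluster of desmosomal cadherin genes, whose order along the chromosome in the RefSeq table is DSC3, DSC2, DSC1, DSG1, DSG4, DSG3 and DSG2. Of these 7 genes DSC3, DSC2 and DSG2 were measured, with ratios of -0.30, -0.41 and -0.13, and the other 4 were under the floor in both arrays. The 250 bases upstream of the annotated starts of DSC2 and DSG2 are shown because the 2 member probe sets at least 1.5-fold lower belong to these genes, although by highest-reading probe set JUP, PKP2, OCLN and TJP1 had lower ratios than DSG2. They are from RefSeq on build GRCh38.p14, 5′ to 3′ on the strand of the gene. Capitals mark CACCTG and its reverse complement CAGGTG, the E-box that Snail and ZEB repressors are known to bind. The DSC2 window lies at chr18:31102422-31102671 on the minus strand and the DSG2 window at chr18:31497927-31498176 on the plus strand.
DSC2: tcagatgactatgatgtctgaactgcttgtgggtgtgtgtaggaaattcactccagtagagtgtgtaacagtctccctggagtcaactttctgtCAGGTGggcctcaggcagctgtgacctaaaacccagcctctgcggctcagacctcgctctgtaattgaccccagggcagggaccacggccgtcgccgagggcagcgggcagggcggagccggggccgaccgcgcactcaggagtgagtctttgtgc
DSG2: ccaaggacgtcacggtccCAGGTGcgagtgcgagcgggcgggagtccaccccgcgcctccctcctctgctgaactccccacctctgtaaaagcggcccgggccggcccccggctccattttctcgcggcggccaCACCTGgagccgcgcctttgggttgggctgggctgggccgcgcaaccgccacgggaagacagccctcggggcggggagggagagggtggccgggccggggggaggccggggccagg
The DSC2 window holds 1 match, whose first letter is 156 bases before the start, and the DSG2 window holds 2, at 232 and 116 bases. The second annotated start of DSC2 has none. No other motif was searched. Of the 10 members 7 had an upstream window in the table, and 7 of their 13 windows, from 6 genes, held at least 1 match, against 17.5% of all 35116 windows. Windows of 1 gene can overlap, and a match of letters is a description and not a binding site. The 17.5% is a share of windows, and no share of genes with a match is given. Of the other members with a window, DSP (0.05 on its highest-reading probe set) and JUP (-0.25) have 2 matches. OCLN (-0.23) has 1 in each of its windows, TJP1 (-0.14) has 1 and CLDN1 (-0.08) has none. Whether the matches bear on the ratios was not tested.

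The genes of the plaque proteins were not all lower. DSP, which encodes desmoplakin, the link to keratin filaments, read 7883.7 in the siCONTROL and 8145.0 in the siSHISA2 array on its only probe set (log2 ratio 0.05), a ratio between 0.01 and 0.06 under all alternatives. JUP encodes plakoglobin, the armadillo protein shared by desmosomes and adherens junctions, and read 2451.3 and 2063.3 on its only probe set, or 84.2% of control (-0.25). DSP was thus near equal in the arrays. The ratio of JUP was 1.58 times the bright yardstick in size. Of all probe sets with a mean signal above the 75th percentile, 12.3% had a ratio as low as that of JUP or lower.

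The plakophilins, armadillo proteins that bring desmoplakin to the cadherins, went in opposite directions. PKP2 read 523.1 in the siCONTROL and 439.1 in the siSHISA2 array on 207717_s_at, or 83.9% of control (-0.25), while its other probe set, 214154_s_at, read 2.1 and 1.5 and was not measured. PKP3 read 599.9 and 690.5 on 209873_s_at, or 115.1% of control (0.20). Its other probe set, 209872_s_at, read 25 in the siCONTROL array, under the floor, and 54.7 in the siSHISA2 array, so that it was at least 1.14-fold higher. PKP3 was the only member with every measured probe set higher in the siSHISA2 array besides DSP. Its ratio kept its sign under all 7 alternatives that gave one, as did that of PKP2.

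**Figure D2:**
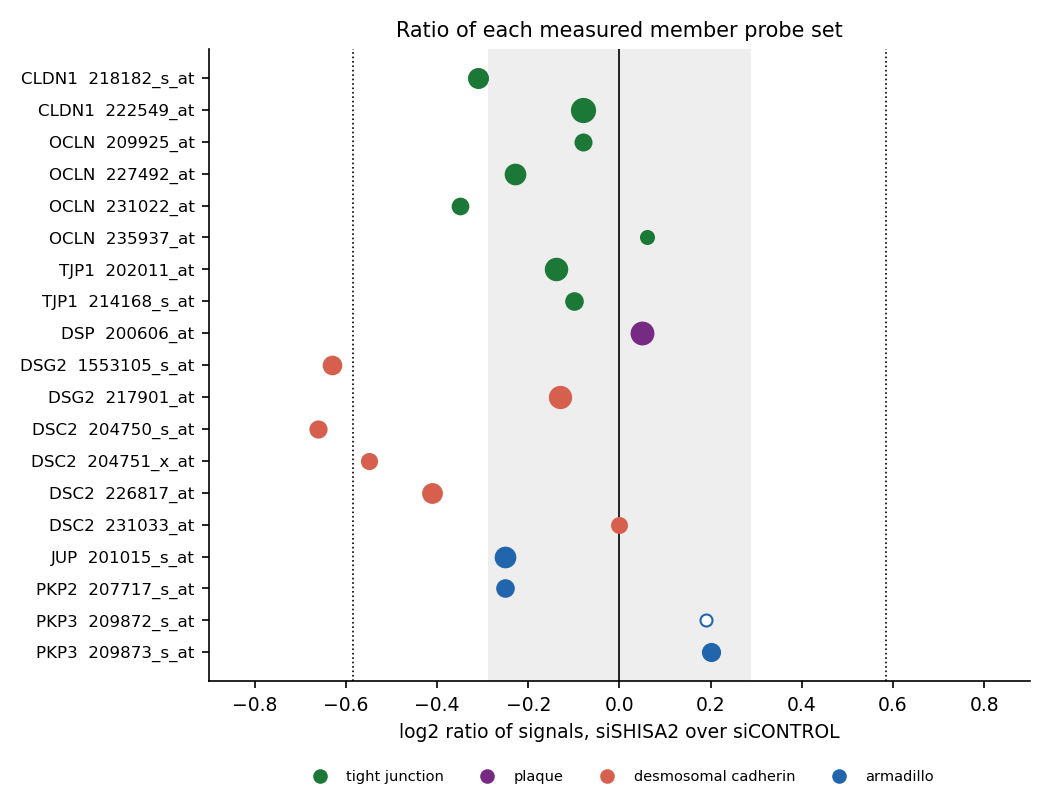
Log2 ratio of signals, siSHISA2 over siCONTROL (x axis), for each of the 19 measured probe sets, coloured by role, with larger circles for higher signals and an open circle for the ratio that is a bound. The grey band is 0 plus or minus 0.286, the technical yardstick, and the dotted lines mark 1.5-fold. The desmosomal cadherins reach -0.66, and PKP3 lies at 0.20.

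Brightness decides how far a ratio can be read. Of the 19 probe sets 12 had a mean signal above the 75th percentile, and 10 of these were below 0, with a median of -0.19, against 50.4% and a median of 0.00 over all 12177 such probe sets. Among the 12, 1, of DSG2, was at least 1.5-fold lower, against 1.5% of all. Of the 7 dimmer ones 4 were below 0, with a median of -0.08, against 45.4% and a median of 0.05. Among these 1, of DSC2, was at least 1.5-fold lower, against 7.31% of all. The share of all probe sets at least 1.5-fold apart was 2.53% among the brighter and 18.3% among the dimmer ones.

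**Figure D3:**
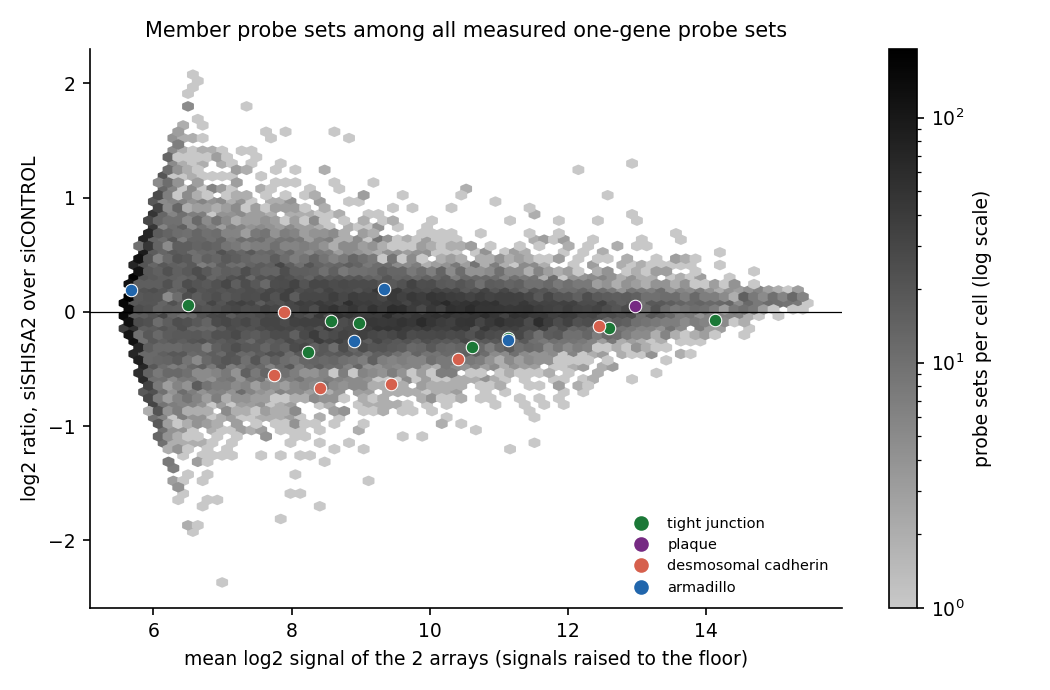
Log2 ratio, siSHISA2 over siCONTROL (y axis), against the mean log2 signal of the 2 arrays (x axis) for all 24507 measured probe sets with 1 gene, as a grey density, and for the 19 junction probe sets, coloured by role. The density narrows with rising signal, and the desmosomal cadherin probe sets lie along its lower side, apart from that at 0.00 and the brightest DSG2 probe set at -0.13.

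Of 11 other desmosome genes 6 were measured, and 5 were below 0, with a median of -0.24. Over all measured genes, the comparison for this and the following lists, 47.8% were below 0, with a median of 0.01. Periplakin, encoded by PPL, a plakin that joins the plaque to keratins, read 764.7 in the siCONTROL and 595.3 in the siSHISA2 array (log2 ratio -0.36). PKP4, a relative of the plakophilins, had a ratio of -0.19 with probe sets from -0.54 to 0.38, and PERP, a 4-pass desmosome protein, one of -0.17. These were the 3 genes of the list with both signals above the 75th percentile. Among the dimmer ones EVPL, which encodes the plakin envoplakin, read 105.1 and 52.4, which is 2.01-fold lower and close to the floor, and DSC3 read 233.7 and 189.7 (-0.30). For comparison, 0.565% of all measured genes were at least 2-fold lower. DSG1, DSG3, DSG4, DSC1 and PKP1, which are known from stratified epithelia, were under the floor. DSC3, known from them too, was measured on 3 probe sets, with ratios from -0.62 to -0.07.

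Of 16 adherens junction genes 11 were measured, with 7 below 0 and a median of -0.08. N-cadherin, encoded by CDH2, read 223.5 in the siCONTROL and 161.6 in the siSHISA2 array (-0.47), and P-cadherin, encoded by CDH3, read 87.2 and 129.7 (0.57). Both cadherins were dim, and CDH2 was named after its value was seen. Vinculin, encoded by VCL, which couples the junction to actin, had a ratio of -0.31 with -0.02 on its other probe set. Afadin, AFDN, read -0.18 with probe sets up to 0.60, and the nectins NECTIN3 and NECTIN2 read -0.12 and 0.12. The 4 probe sets of NECTIN2 ranged from -0.24 to 0.97. NECTIN1, under the floor in the siCONTROL array, was at least 1.94-fold higher. The catenin genes CTNNA1 and CTNNB1, named after their values were seen, had ratios of -0.03 and -0.08. Their probe sets ranged from -0.17 to 0.12 for CTNNA1 and from -0.57 to -0.08 for CTNNB1.

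The other tight junction genes were spread around 0. Of 20 other claudins 11 were measured, with 5 below 0 and a median of 0.06. The 3 bright ones were CLDN15 (0.23), CLDN16 (0.06) and CLDN12 (-0.06). CLDN14 read 202.9 in the siCONTROL and 116.0 in the siSHISA2 array (-0.81), and CLDN18, under the floor in the siCONTROL array, was at least 1.85-fold higher. Of 23 further tight junction and polarity genes 18 were measured, with 10 below 0 and a median of -0.05. CXADR, an adhesion protein of the junction and the coxsackievirus receptor, read 1207.3 and 894.2 (-0.43) and was lower on all 4 probe sets (-0.50 to -0.16). MPDZ, a scaffold with many PDZ domains, had a ratio of 0.31, and the polarity genes PALS1 and PARD6B had -0.26 each, the latter with 0.27 on its other probe set. CRB3, a polarity protein of the apical membrane, read 195.1 and 309.8 (0.67), and MARVELD3 had 0.54 with -0.73 on its other probe set.

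**Figure D4:**
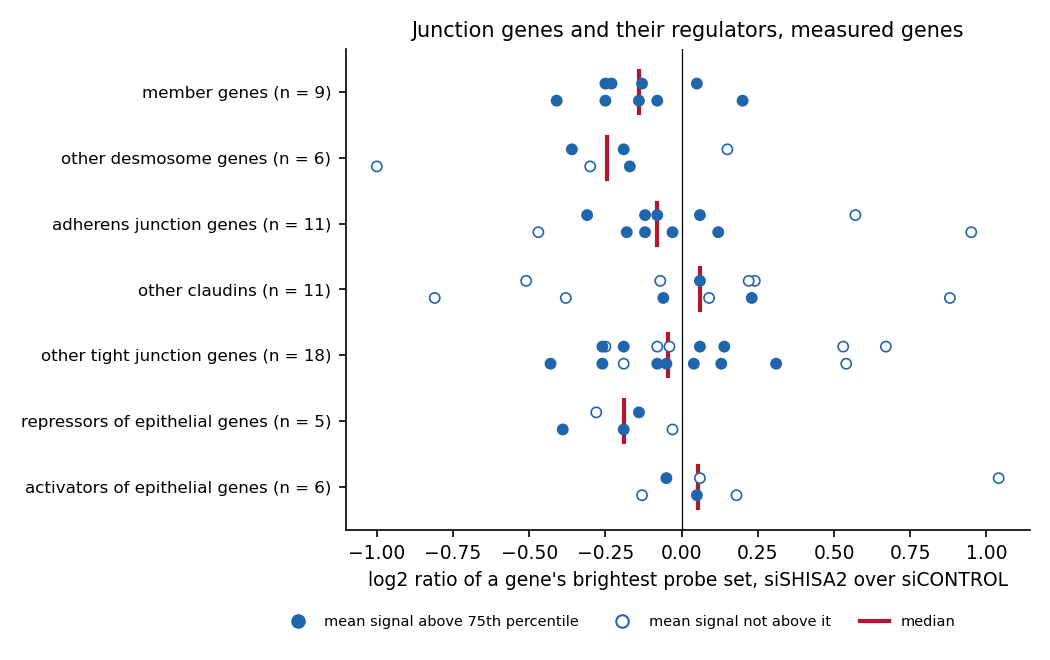
Log2 ratio of the highest-reading measured probe set of each gene, siSHISA2 over siCONTROL (x axis), for the 9 measured member genes and 6 lists of related genes (rows). Filled circles are genes with a mean signal above the 75th percentile, open circles the dimmer ones, some of which are bounds, and red bars the medians. The member genes lie between -0.41 and 0.20, and the widest spread is among dim genes.

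Regulators known to act on epithelial genes, most of them transcription factors, were read from 2 further lists. Of 10 repressors of epithelial genes 5 were measured, and all 5 were below 0, with a median of -0.19. Over all measured genes 47.8% were below 0, with a median of 0.01. ZEB1, a repressor of CDH1, read 1076.2 in the siCONTROL and 977.3 in the siSHISA2 array (-0.14), with probe sets from -0.61 to 0.14, and ZEB2 read 317.3 and 260.9 (-0.28, with up to 0.45 on another). FOXC2 read 3182.7 and 2426.9 (-0.39, and -0.08 on its other probe set), TCF4 -0.19 with probe sets from -0.70 to 0.02, and SNAI1 60.5 and 59.1. SNAI2, TWIST1 and TWIST2 were under the floor. Of 11 activators of epithelial genes 6 were measured, with 4 above 0 and a median of 0.06. Among the 4 is ESRP1, a splicing regulator named after its values were seen. It read 7.8 in the siCONTROL array, under the floor, and 50 in the siSHISA2 array, so its ratio of 0.06 is a bound. ELF3 and GRHL1, the bright ones, had 0.05 and -0.05, OVOL1, under the floor in the siCONTROL array, was at least 2.05-fold higher, and OVOL2 read 121.2 and 137.7 (0.18). GRHL2, an activator of CDH1, was not above the floor in either array. The counts below 0 in these lists of repressors and of other desmosome genes were the same under the 3 other scalings.

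The label of an epithelial line was checked against markers. Keratins of simple epithelia were present, with KRT18 at 18339.7 in the siCONTROL and 17533.2 in the siSHISA2 array and KRT8 at 2283.2 and 1989.6. EPCAM read 353.6 and 313.1, CD24 237.5 and 180.8, and KRT19 was under the floor. The 5 measured markers had a median ratio of -0.18 and all were below 0, against 47.8% of all measured genes. Of the prostate secretory markers KLK3 was measured at 242.3 and 251.0 and KLK2 only in the siSHISA2 array, while TMPRSS2 and FOLH1 were under the floor. Of 7 leukocyte markers 2 were measured, each only in the siSHISA2 array and at most at 59.9, and PTPRC was under the floor. Of 6 endothelial markers 2 were measured, CDH5 at 155.9 and 261.5 and PECAM1 at 104.6 and 121.7, with VWF, KDR, TEK and CLDN5 under the floor. Of 7 fibroblast markers 2 were measured, COL1A1 at 787.2 and 577.0 on its highest-reading probe set and DCN near the floor. The 3 measured probe sets of COL1A1 went in opposite directions, with ratios from -0.45 to 0.92. With signals under the floor raised to it, and summed over every marker with a probe set, measured or not, the siCONTROL and siSHISA2 arrays gave 239.5 and 260.9 for leukocyte, 452.1 and 574.8 for endothelial, 1074.6 and 869.8 for fibroblast and 21589.6 and 20373.1 for simple epithelial markers. Their part in the junction ratios was not tested.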

How the data were processed

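The values that the authors deposited are linear intensities per probe set from MAS5, per the submitters' processing notes (version not given in these sources). Per the labels' protocols, 250 ng of total RNA was labelled for each array. Groups came from the sample titles. No scaling was added. Of 54675 probe sets 62 were controls and were left out. The annotation table names 1 gene for 41097 probe sets, several for 1801 and does not list 11777. Gene identifiers of 41043 matched RefSeq of GRCh38.p14, used for names and gene order, and no symbol changed. Upstream windows came from the RefSeq promoter table.

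The floor was the median signal, and log2 ratios, bounds and counts were computed in Python 3.11.15 with pandas 2.3.3 and numpy 2.4.6. With 1 array per group no p-value was computed. The steps from signals to log2 ratios were tested on simulated data, with changes put only into bright probe sets clear of every floor. Changes in dim probe sets, bounds and the yardstick were not tested in that way. Alternatives were median centring, quantile normalization, loess (statsmodels 0.14.6, span 0.3), floors at the 25th (11.3) and 75th (387.3) percentile, a pseudocount of 1 in place of a floor, no _x_at or _s_at probe sets (which can share probes with other transcripts), the mean over probe sets, and 2-fold for 1.5-fold. The members and the 12 lists (135 genes, 1 in several lists) were chosen with earlier results of these data known. All members were named, and of each list up to 4 genes with both signals above the 75th percentile and up to 2 others, by size of ratio. Others are marked.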

Additional observations from a re-analysis of the deposited data

How the results depend on the processing

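The sign of every measured member gene was the same under all 8 alternatives, or all 7 for JUP, PKP2 and PKP3, which have no value without _x_at and _s_at probe sets. The median over member probe sets stayed between -0.16 and -0.11. The count of probe sets at least 1.5-fold apart, 2 as reported, was 0 at a 2-fold threshold, 0 without _x_at and _s_at probe sets, 1 with the floor at the 75th percentile, where DSC2 204750_s_at had a bound of -0.15, 3 with no floor and 4 with the floor at the 25th percentile, where CDH1 entered with a bound of -0.91 from signals near background. Without _x_at and _s_at probe sets 10 remained, of which 7 were below 0. No share over all probe sets is given for the other floors or without these kinds, so the counts there are not set against the whole array. Of 255 other values under an alternative 250 moved by less than 0.286 and 5 by more. A sign changed in 5 of the 255, over 4 results that were at most 0.08 in size as reported, among them OCLN 235937_at. The median of the other claudins was at 0.00 after quantile normalization and -0.06 with the lower floor, that of the activators -0.01 without _x_at and _s_at probe sets, and that of the adherens junction genes 0.02 with the lower floor. The dim PKP3 probe set 209872_s_at, 0.19 as reported, had a ratio of 1.10 with no floor and 1.13 with the lower floor, at least 1.5-fold higher in both. No paired analysis was possible because each group has 1 array. Signal over background limits CDH1, PKP1 and the other genes under the floor, for which no difference was detectable.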

Other observations

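Genes of squamous differentiation, in which desmosomes are known to be abundant, were mostly under or near the floor. Of 12 genes 10 had a probe set and 5 were measured, with a median of -0.26, of which 3 were below 0. SCEL, which encodes sciellin, a precursor of the cornified envelope, read 483.3 in the siCONTROL and 163.3 in the siSHISA2 array (log2 ratio -1.57), with up to -0.06 on its other probe sets. SPRR1B, another envelope precursor, was at least 1.58-fold lower, from 75.7 to under the floor. KRT10, a keratin of suprabasal epidermis, read 5630.1 and 5925.9 (0.07). IVL, FLG and KRT1 were under the floor. The median of this list was -1.56 with no floor and -0.66 without _x_at and _s_at probe sets.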
